A study of Zea mays with 12 samples.

Results

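Zeins are the prolamin storage proteins of the maize (Zea mays) kernel. They are made on the endoplasmic reticulum of endosperm cells and are stored there in protein bodies. The cysteine-rich gamma- and beta-zeins lie mainly in the outer part of a protein body and are joined by disulfide bonds, while alpha- and delta-zeins fill its inside. Delta-zeins are rich in methionine. The bZIP protein Opaque2 (o2) and the Dof protein PBF (pbf1) are well known activators of zein genes.

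The genes described are 5 zein genes of the gamma, beta and delta classes, chosen by identifier from the 108342 gene models in the tables. They are the 27 kDa gamma-zein gz27 (GRMZM2G138727), whose protein takes part in starting protein bodies, and the 16 kDa gamma-zein gz16 (GRMZM2G060429), the gene altered in the Mucronate mutant. The others are the 50 kDa gamma-zein gz50 (GRMZM2G138689), the 15 kDa beta-zein bz15 (GRMZM2G086294) and the 18 kDa delta-zein dzs18 (GRMZM2G100018). RNA was sequenced from reciprocal crosses of the inbred lines B73 and Mo17, written by convention with the mother first: BxM (labelled B73XMo17) and MxB (labelled Mo17XB73). Samples were unpollinated kernels (0 days after pollination, DAP), whole kernels of 3 and 5 DAP and endosperm of 7, 10 and 15 DAP. At 0 DAP no cross had taken place, so BxM there stands for the mother line B73 and MxB for Mo17. With 1 library for every cross at every age there are 12 in all. RNA was taken from 3 groups of plant material per sample, per the labels, but 1 column was deposited for each, so the spread between plants of 1 cross is not known.

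Total counts ran between 59378582 and 70930121 per library at 0 to 10 DAP and were 35401314 in BxM and 39864984 in MxB at 15 DAP. Levels are given as CPM, counts scaled to a library size of 1000000 with edgeR's TMM factors. The limit that a count of 0 allows, 3 counts, lay at 0.0304 to 0.143 CPM with TMM factors, and at 0.0423 to 0.0847 CPM of the library total. These floors and the intervals below cover counting error only. The endosperm markers (o2, pbf1 and fl3, 3 of 3 found) summed to 0.825 to 48.9 CPM in kernels and 5289 to 8511 CPM at 7 DAP. Their sums were 2163 to 4712 CPM at 10 DAP and 8398 to 12387 CPM at 15 DAP. Most of each sum was fl3, which stood at 8506 CPM (BxM) and 5275 CPM (MxB) at 7 DAP. At 10 DAP fl3 stood lower, at 4468 and 2030 CPM, while o2 and pbf1 were higher than at 7 DAP in both crosses. Ovule and maternal markers (2 of 3 found) summed to 409 to 556 CPM in kernels, 5.52 to 6.29 CPM at 7 DAP, 65.3 to 111 CPM at 10 DAP and 1.15 to 1.45 CPM at 15 DAP. Embryo markers (4 of 4 found) summed to 33.9 to 69.6 CPM at 7 DAP, 220.2 to 423 CPM at 10 DAP and 24.6 to 35.2 CPM at 15 DAP, so among endosperm libraries both lists were highest at 10 DAP. The part of these tissues in the zein values was not tested. In such bulk samples, fewer cells of a type and less RNA per cell cannot be told apart.

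At 15 DAP gz27 and gz16 were listed at 0 counts in both crosses, and the deposited signal was 0 as well. At 10 DAP gz27 had 645990 counts in BxM and 606332 in MxB, and gz16 had 121304 and 54658. They belonged to 21 models, 6 named alpha-zein genes among them, that were abundant at 10 DAP or in 1 cross and were listed at 0 at 15 DAP. No count in any of the 12 libraries reached 1000000. The largest was 992970, and 3 counts in the 15 DAP libraries lay above 900000. These 0 values are treated as doubtful: no level, change or cross difference at 15 DAP is given for gz27 or gz16. The 15 DAP library totals hold all 21 models as listed, so the totals are too low if counts are missing there.

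The counts of gz27 were identical to those of the model GRMZM2G438538 in every library. Those of gz16 were closely followed by GRMZM2G518638, whose counts summed to 93.5% of its own. The single values of both genes therefore depend on how reads shared by copies were counted. In the gene order of the RefSeq annotation (assembly Zm-B73-REFERENCE-NAM-5.0), gz50 and gz27 are direct neighbours with 0 annotated genes between them. The gene on the other side of gz50, GRMZM2G117230, had 12 counts or fewer in each endosperm library. The gene beyond gz27, GRMZM2G138976, lay between 16.2 and 30.1 CPM in all 6 endosperm libraries. Neither neighbour reached the levels that gz50 and gz27 had in late endosperm.

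**Figure D1:**
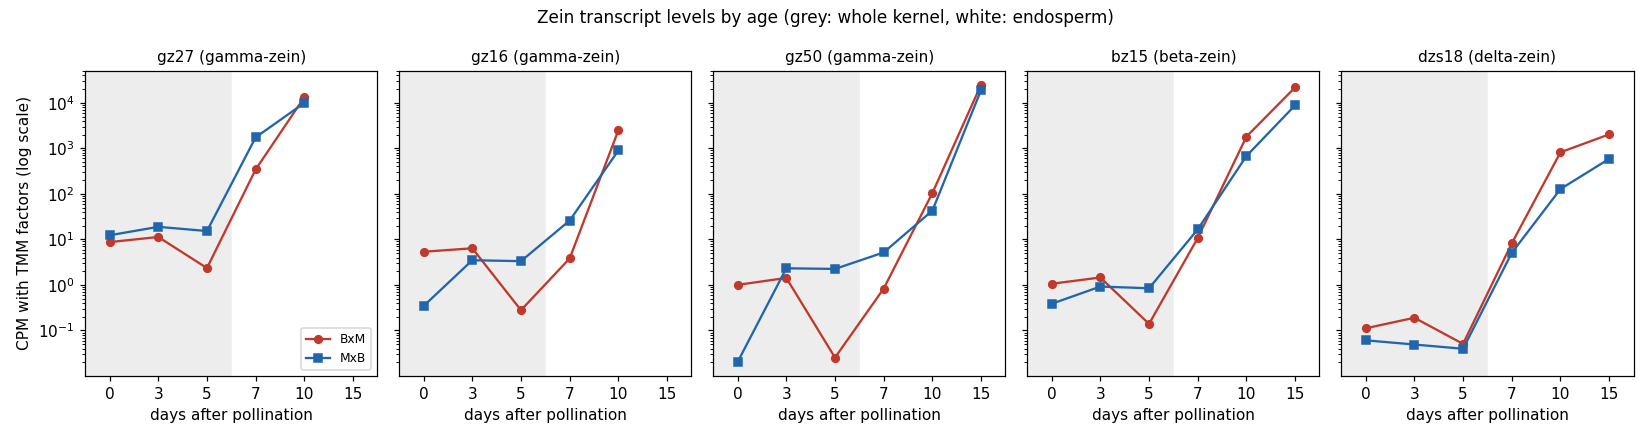
Level of each zein gene (CPM with TMM factors, log scale) against days after pollination, with ages evenly spaced, for BxM (circles) and MxB (squares); each point is 1 library, and grey marks kernels. All 5 genes were higher at 10 DAP than at any earlier age in both crosses; gz27 and gz16 have no point at 15 DAP because their listed 0 is doubtful.

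All 5 genes were at their lowest in kernels and climbed in endosperm. gz27 was already abundant at 7 DAP, bz15 and dzs18 climbed at 7, 10 and 15 DAP, and gz50 reached its high level between 10 and 15 DAP. gz27 had 8.72 CPM in BxM and 12.3 CPM in MxB at 0 DAP, 11.3 and 18.9 CPM at 3 DAP, and 2.35 and 15.3 CPM at 5 DAP. In endosperm it had 344 CPM in BxM and 1742 CPM in MxB at 7 DAP, then 13282 and 9957 CPM at 10 DAP. The kernel ages of gz27 overlapped, and all kernel values lay below 7 DAP, which lay below 10 DAP.

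gz16 had 5.35 CPM in BxM and 0.345 CPM in MxB at 0 DAP, 6.39 and 3.49 CPM at 3 DAP, and 0.279 and 3.33 CPM at 5 DAP. In endosperm it had 3.82 CPM in BxM and 26.0 CPM in MxB at 7 DAP, then 2494 and 898 CPM at 10 DAP. The 7 DAP values overlapped those of 0 and 3 DAP: endosperm of BxM at 7 DAP held less gz16 than BxM kernels did at 0 DAP. The 10 DAP values stood clear of all the others.

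gz50 had 1.00 CPM in BxM and 0.0203 CPM in MxB at 0 DAP, 1.43 and 2.32 CPM at 3 DAP, and 0.0254 and 2.25 CPM at 5 DAP. In endosperm it had 0.833 CPM in BxM and 5.18 CPM in MxB at 7 DAP, 104 and 43.0 CPM at 10 DAP, and 25059.8 and 19083 CPM at 15 DAP. The 7 DAP values overlapped those of kernels. At 10 DAP gz50 stood at 0.417% of its 15 DAP level in BxM and 0.225% in MxB, so nearly all of its climb fell after 10 DAP. At 15 DAP it took 1.48% of all listed counts in BxM (Wilson 95% interval 1.477 to 1.484) and 1.32% in MxB (1.315 to 1.323). The listed totals hold the doubtful 0 values, so these shares are too high if counts are missing there, which the intervals do not cover.

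bz15 had 1.06 CPM in BxM and 0.385 CPM in MxB at 0 DAP, 1.46 and 0.921 CPM at 3 DAP, and 0.140 and 0.846 CPM at 5 DAP. In endosperm it had 10.7 CPM in BxM and 16.6 CPM in MxB at 7 DAP, 1807 and 678 CPM at 10 DAP, and 21833 and 8837 CPM at 15 DAP. No endosperm age overlapped another or any kernel value. At 10 DAP bz15 stood at 8.27% of its 15 DAP level in BxM and 7.67% in MxB.

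dzs18 had 10 counts in BxM and 6 in MxB at 0 DAP, 12 and 4 at 3 DAP, and 4 and 3 at 5 DAP, close to the floor. In endosperm it had 8.18 CPM in BxM and 5.06 CPM in MxB at 7 DAP, 819 and 128 CPM at 10 DAP, and 2026 and 588 CPM at 15 DAP. The 7 DAP values lay below those of 10 and 15 DAP. These later ages overlapped: BxM at 10 DAP (819 CPM) lay above MxB at 15 DAP (588 CPM). At 10 DAP dzs18 stood at 40.4% of its 15 DAP level in BxM and 21.7% in MxB, shares above those of gz50 and bz15 in the same libraries.

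Consecutive ages were compared with edgeR's quasi-likelihood test in 1 fit of the 12 libraries, with terms for age and for cross. The p-values are adjusted over all models tested. With 1 library per cross and age, they measure how unequally the crosses moved and not the spread between plants. All 5 genes passed the filter on low counts, dzs18 only through its endosperm libraries, where it was high. Between 3 and 0 DAP the log2 fold changes (later over earlier) were 0.34 to 1.71, and 0 of 5 passed, against 0.531% of all models called higher and 0.0173% lower. With 1 library left out, gz16 ran between -0.35 and 4.57, gz50 between 0.36 and 6.96, and dzs18 between -0.049 and 0.70. Between 5 and 3 DAP they were -1.41 to -0.85, and again 0 of 5 passed, where 0.0129% of all models were called higher and 0% lower. With 1 library left out, gz27 ran between -2.25 and -0.32, gz16 between -4.56 and -0.012, bz15 between -3.46 and -0.030, and gz50 between -6.34 and 0.39. The lowest unadjusted p over both steps was 0.133, and DESeq2 called 0 of 5 as well. Over all models DESeq2 called 2564 higher and 651 lower of 34666 at 3 against 0 DAP. At 5 against 3 DAP it called 738 higher and 549 lower of 30753.

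At 7 DAP, in endosperm, gz27 and bz15 were higher than in kernels of 5 DAP, while 10.0% of all models were called higher and 14.8% lower. This step compares both an age and a tissue. gz27 was 146-fold higher in BxM and 114-fold higher in MxB, with a fitted log2 fold change of 6.93 (SE 0.918, edgeR adjusted p = 0.00178). bz15 rose by a log2 of 4.72 (SE 0.954, edgeR adjusted p = 0.00748), though it no longer passed without the MxB library of 7 DAP (log2 3.90, adjusted p = 0.0508). gz16 and gz50 did not pass, with log2 fold changes of 3.05 (SE 1.54, edgeR adjusted p = 0.198) and 1.44 (SE 1.58, adjusted p = 0.561). For gz50 the value turned to -0.66 without the MxB library of 7 DAP. dzs18 had 540 counts in BxM and 337 in MxB at 7 DAP, against 4 and 3 at 5 DAP, a log2 fold change of 7.29 (SE 0.661, edgeR adjusted p = 0.000326). Since dzs18 was tested only because it is high in endosperm, this value is a description and is not counted with the other calls. With no filter on low counts its log2 fold change was 7.28 (edgeR adjusted p = 5.24e-05).

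Leaving out 1 of the 4 libraries of 5 and 7 DAP moved the called values, in some cases by more than 1.5 times. Without BxM 5 DAP, MxB 5 DAP, BxM 7 DAP and MxB 7 DAP in turn, gz27 had log2 fold changes of 6.25, 8.18, 7.48 and 5.97. In the same order dzs18 had 6.52, 7.82, 7.86 and 6.70, and bz15 had 3.73, 7.16, 5.20 and 3.90. gz16, which was not called in the fit of all libraries, had 2.06, 6.61, 3.93 and 0.21. All of these values were positive.

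**Figure D2:**
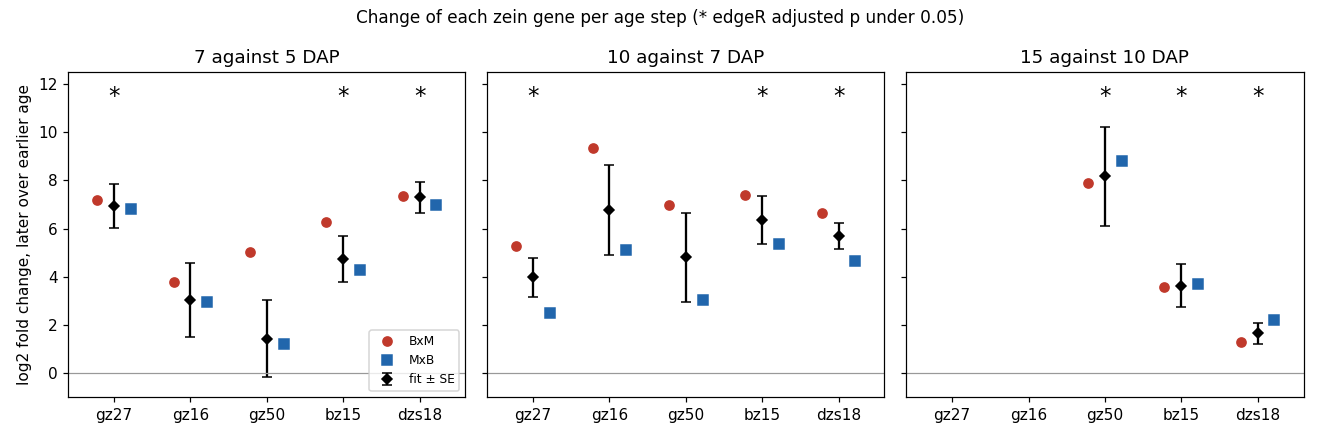
Log2 fold change (later over earlier age) of each gene at the 3 steps that involve endosperm: circles BxM and squares MxB (1 library per cross and age), diamonds the edgeR fit with its SE, stars an adjusted p under 0.05. At 10 against 7 DAP the change was larger in BxM than in MxB for all 5 genes; gz27 and gz16 are not shown at 15 against 10 DAP.

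At 10 DAP all 5 genes were above 7 DAP in both crosses, and 3 of 5 passed, where 2.83% of all models were called higher and 0.962% lower. The median log2 fold change was 5.70, beside -0.053 over all models. dzs18 was 100.1-fold higher in BxM and 25.3-fold higher in MxB (fitted log2 5.70, SE 0.540, edgeR adjusted p = 0.00361). bz15 was 168-fold higher in BxM and 40.8-fold higher in MxB (6.36, SE 1.01, edgeR adjusted p = 0.0155). gz27 was 38.6-fold and 5.72-fold higher in the same crosses (3.98, SE 0.817, edgeR adjusted p = 0.0422). gz16 was 653-fold higher in BxM but 34.5-fold in MxB, and gz50 was 125-fold and 8.31-fold higher, and neither passed (edgeR adjusted p = 0.0967 and 0.204). The fold was larger in BxM for each of the 5 genes, a difference that was not tested. DESeq2 called 4 of 5, gz16 among them (adjusted p = 0.00209), and called 9.13% of all models higher. Fitted on the 6 endosperm libraries alone, where 5.85% of all models were called higher, all 5 passed, gz16 with edgeR adjusted p = 0.0154 and gz50 with adjusted p = 0.0243.

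Of these calls dzs18 alone held in every alternative tried. Without BxM 7 DAP, MxB 7 DAP, BxM 10 DAP and MxB 10 DAP in turn its log2 fold change was 5.12, 6.28, 4.89 and 6.37. bz15 had 5.76, 7.07, 5.70 and 6.93 in the same order, and it lost its call without BxM 7 DAP (adjusted p = 0.139) or MxB 7 DAP (adjusted p = 0.0756). gz27 had 3.27, 4.77, 2.85 and 4.83, and lost its call in each of these 4 fits. It also lost it without BxM 0 DAP, MxB 0 DAP or BxM 3 DAP and with median-ratio scaling, at adjusted p between 0.0536 and 0.277 over all 8 of these settings.

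At 15 DAP all 3 genes with usable values were higher than at 10 DAP, where 3.73% of all models were called higher and 14.0% lower. gz50 was 239.9-fold higher in BxM and 444-fold higher in MxB (fitted log2 8.18, SE 2.05, edgeR adjusted p = 0.0261). bz15 was 12.1-fold and 13.03-fold higher in the same crosses (3.63, SE 0.880, edgeR adjusted p = 0.0225). dzs18 was 2.48-fold and 4.61-fold higher (1.65, SE 0.449, edgeR adjusted p = 0.0350). The median over the 3 genes was 3.63, beside -0.37 over all models, and that last value was -0.11 with median-ratio and -0.076 with upper-quartile scaling. The 100 most abundant models held 48.6% of listed counts in BxM and 41.3% in MxB at 15 DAP, against 20.4% and 18.4% at 10 DAP. The 15 DAP shares rest on totals that hold the doubtful 0 values. Summed markers of other endosperm cell types were far lower at the later age. Transfer layer markers (4 of 4 found) summed to 1.63 to 1.78 CPM at 15 DAP, against 1145 to 2044 CPM at 10 DAP. That fall was in betl1, meg1 and mn1. The marker mrp1 was low at both ages, at 0.987 CPM in BxM and 0.788 CPM in MxB at 10 DAP. At 15 DAP mrp1 had 1.05 CPM in BxM and 0.363 CPM in MxB. Aleurone markers (2 of 2) summed to 50.3 to 79.6 CPM, against 3174 to 3773 CPM, and markers of the embryo-surrounding region (3 of 3) to 0.383 to 1.09 CPM, against 70.7 to 147 CPM. The part of these cell types in the zein values was not tested.

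Each of the 4 libraries of this step bore on the calls: 1 of 3 passed without BxM 10 DAP, 0 without MxB 10 DAP, 0 without BxM 15 DAP and 1 without MxB 15 DAP. In these 4 fits 1.10%, 0.903%, 1.25% and 2.06% of all models were called higher. In the same order gz50 had log2 fold changes of 9.53, 7.41, 7.55 and 8.55. bz15 had 4.36, 3.13, 2.97 and 4.07, and dzs18 had 2.52, 1.04, 1.48 and 1.78. All stayed positive.

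The crosses were then compared within endosperm, where BxM holds more genome copies from its B73 mother and MxB more from its Mo17 mother. At 7 DAP 4 of the 5 genes were lower in BxM than in MxB, and at 10 DAP all 5 were higher in BxM. The share of all models in each direction at a single age was not counted. The alpha-zein gene fl2, the activator pbf1 and the legumin gene leg1 were also lower in BxM at 7 DAP and higher at 10 DAP. The marker fl3 was higher in BxM at both ages. gz27 had a log2 ratio (BxM over MxB) of -2.34 at 7 DAP and 0.42 at 10 DAP. gz16 had -2.77 and 1.47, gz50 had -2.63 and 1.28, and bz15 had -0.63 and 1.41 at the same ages. dzs18 was the exception, with 0.69 at 7 DAP, 2.68 at 10 DAP and 1.78 at 15 DAP. At 15 DAP gz50 had 0.39 and bz15 had 1.30. No sign among these ratios changed with library totals, median-ratio or upper-quartile factors in place of TMM.

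**Figure D3:**
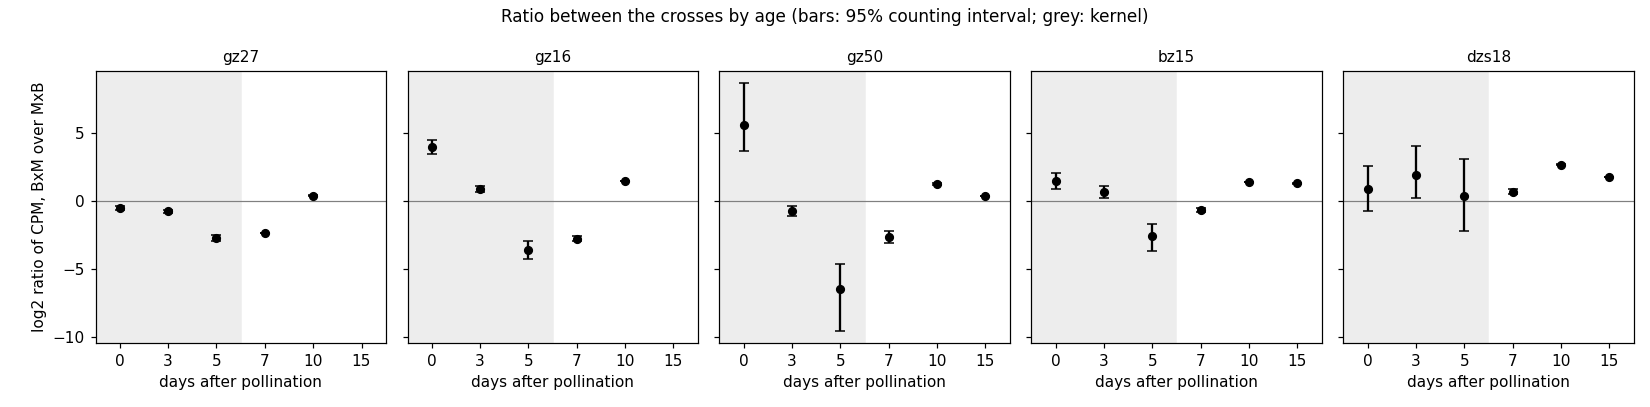
Log2 ratio of CPM, BxM over MxB, of each gene by days after pollination, from 1 library each, with 95% counting intervals as bars and grey for kernels. At 7 DAP the ratio was below 0 for gz27, gz16, gz50 and bz15 and above 0 for dzs18, and at 10 DAP it was above 0 for all 5 genes.

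In a fit of the 6 endosperm libraries that had a term for age, 0 of the 3 genes tested differed between crosses, where 0.00564% of all models were called higher in BxM and 0% lower. dzs18 averaged 951 CPM in BxM and 240.3 CPM in MxB, a log2 fold change of 1.75 (SE 0.389, 2 SE interval 0.97 to 2.53), higher in BxM at 3 of 3 ages. Its unadjusted p was 0.00249, the only value of the 3 under 0.05, and its edgeR adjusted p = 0.198. Over all models 3873 of 35482 had an unadjusted p under 0.05 in this fit. DESeq2 and edgeR with no filter on low counts each called 1 of 3 genes, dzs18, at adjusted p = 0.000319 and 0.000265, while they called 1.70% and 0.854% of all models higher in BxM. Without BxM 7 DAP or MxB 7 DAP 2 of 3 passed, where 1.22% and 1.23% of all models were called higher in BxM. dzs18 then had log2 fold changes of 2.27 and 2.27, and bz15 had 1.40 and 1.40 with adjusted p as low as 0.00195. Over its alternatives the adjusted p of dzs18 lay between 0.000265 and 0.517. bz15 had a log2 fold change of 0.74 (2 SE interval -0.19 to 1.67, edgeR adjusted p = 0.609) in the fit of all 6 libraries. It had 0.37 without BxM 10 DAP, 0.34 without MxB 10 DAP, and 0.40 without either library of 15 DAP. gz50 had -0.14 (-1.62 to 1.33, adjusted p = 0.960), which turned to 0.88 without BxM 7 DAP and 0.87 without MxB 7 DAP. When a library is left out, the other library of its age is taken up by the age term. The fits without BxM 7 DAP and without MxB 7 DAP thus both compare the crosses at 10 and 15 DAP, and are not independent of each other.

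For gz27 and gz16 the 4 endosperm libraries of 7 and 10 DAP were used, where 0.00532% of all models were called higher in BxM and 0% lower, and 0 of 5 genes passed. gz27 had a log2 fold change of -0.93 (2 SE interval -2.30 to 0.43, edgeR adjusted p = 0.782) and gz16 had -0.59 (-2.76 to 1.58, adjusted p = 0.929). Both intervals span 0, and both genes had opposite signs at 7 and 10 DAP. In this fit dzs18 was the 1 gene with an unadjusted p under 0.05 (0.0127), and DESeq2 called 1 of 5, which was neither gz27 nor gz16, and 0.596% of all models higher in BxM. Over all models 3217 of 37563 had an unadjusted p under 0.05 in edgeR. The headers of the deposited columns name B73. An effect of the mother and a lower mapping of reads from Mo17 alleles cannot be told apart here.

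In kernels the genes had low counts that differed sharply between libraries. gz50 had 90 counts in BxM at 0 DAP, 90 at 3 DAP and 2 at 5 DAP, and in MxB it had 2, 189 and 170 at the same ages. gz16 was low in the same libraries, with 480, 403 and 22 counts in BxM and 34, 284 and 252 in MxB. bz15 had 95, 92 and 11 counts in BxM and 38, 75 and 64 in MxB. BxM at 5 DAP and MxB at 0 DAP held the lowest counts of these 3 genes, though bz15 in MxB at 0 DAP was closer to its other kernel counts. gz27 had 782, 713 and 185 counts in BxM and 1215, 1537 and 1156 in MxB, so it was low in BxM at 5 DAP but not in MxB at 0 DAP. dzs18 was at 3 to 12 counts throughout. The ratio of BxM to MxB for gz50 was 49.5 at 0 DAP (log2 5.63, 95% counting interval 3.73 to 8.70) on 90 and 2 counts. At this age it compares the unpollinated mother lines.

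Set against the 15 DAP endosperm of the same cross, the kernel counts were small fractions for every zein. In BxM gz50 stood at 0.0172% of its 15 DAP count at both 0 and 3 DAP, bz15 at 0.0208% and 0.0201%, and dzs18 at 0.0236% and 0.0283%. The median of 12 alpha-zein genes with at least 10000 counts at 15 DAP was 0.0202% and 0.0196% in these libraries. Single alpha-zein genes ran from 0.0148% to 0.0547% at 0 DAP and from 0.0128% to 0.0504% at 3 DAP. In MxB at 3 and 5 DAP gz50 stood at 0.0359% and 0.0323%, bz15 at 0.0308% and 0.0263%, and dzs18 at 0.0247% and 0.0185%. The alpha-zein median was 0.0371% and 0.0332%, with single genes from 0.0241% to 0.0886% and from 0.0242% to 0.0815%. In BxM at 5 DAP all of them were lower, with the alpha-zein median at 0.00115%, gz50 at 0.000382%, bz15 at 0.00241% and dzs18 at 0.00944%. In MxB at 0 DAP the alpha-zein median was 0.000753% and gz50 was at 0.000380%. bz15 and dzs18 did not share these low values, bz15 at 0.0156% and dzs18 at 0.0370% (95% counting interval 0.0136 to 0.0806, on 6 counts). The choice of endosperm library matters to how alike the fractions are: set against the 15 DAP count of MxB, BxM kernels of 0 DAP held 0.0171% for gz50, 0.0390% for bz15 and 0.0617% for dzs18.

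**Figure D4:**
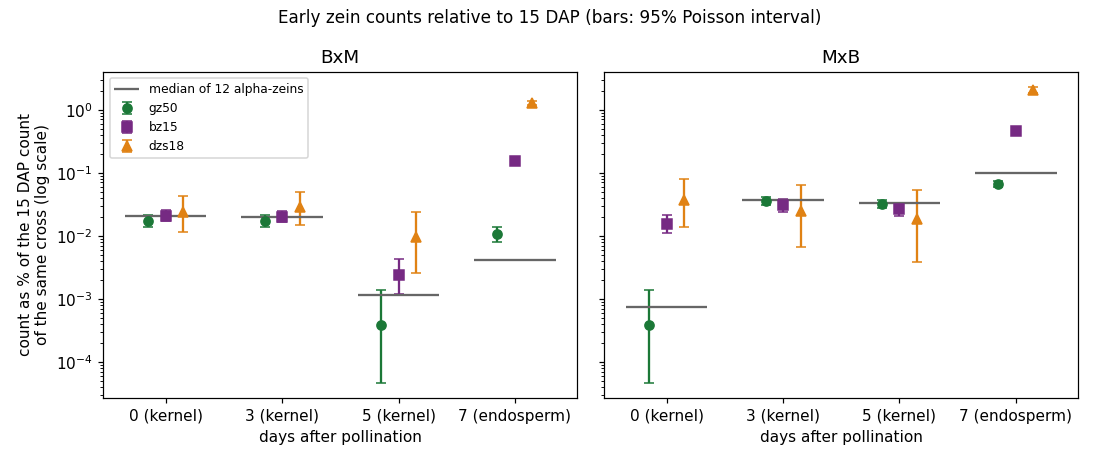
Count of gz50, bz15 and dzs18 in kernels of 0, 3 and 5 DAP and endosperm of 7 DAP as a percentage of the 15 DAP count of the same cross (log scale), with 95% Poisson intervals; grey bars are the median of 12 alpha-zein genes. In 4 of the 6 kernel libraries these genes and the alpha-zein median lay between 0.0172% and 0.0371%. These libraries were BxM at 0 and 3 DAP and MxB at 3 and 5 DAP. Single alpha-zein genes, not shown, ran wider. At 7 DAP gz50, bz15 and dzs18 stood apart from each other.

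The counts of the other genes were also divided by that of bz15 in all 6 kernel libraries. For gz50 and dzs18 this restates the fractions above in another form. gz50 per bz15 was 0.947, 0.978 and 0.182 in BxM at 0, 3 and 5 DAP, beside 0.0578 at 10 DAP and 1.15 at 15 DAP. In MxB it was 0.0526, 2.52 and 2.66 at the same kernel ages, beside 0.0634 at 10 DAP and 2.16 at 15 DAP. dzs18 per bz15 was 0.105, 0.130 and 0.364 in BxM kernels, beside 0.453 at 10 DAP and 0.0928 at 15 DAP. In MxB kernels it was 0.158, 0.0533 and 0.0469, beside 0.188 at 10 DAP and 0.0666 at 15 DAP. At 7 DAP gz50 per bz15 was 0.0777 in BxM and 0.312 in MxB, and dzs18 per bz15 was 0.763 and 0.304. For both ratios, BxM at 5 DAP and MxB at 0 DAP were thus on the side of 7 and 10 DAP from the other 2 kernel libraries of their cross. These ratios rest on counts as low as 2. gz27 per bz15, which has no usable 15 DAP value, was 8.23, 7.75 and 16.8 in BxM kernels, beside 32.0 at 7 DAP and 7.35 at 10 DAP. In MxB kernels it was 32.0, 20.5 and 18.1, beside 104.9 at 7 DAP and 14.7 at 10 DAP. gz16 per bz15 was 5.05, 4.38 and 2.00 in BxM kernels, against 0.356 at 7 DAP and 1.38 at 10 DAP. In MxB kernels it was 0.895, 3.79 and 3.94, against 1.57 at 7 DAP and 1.32 at 10 DAP. Unpollinated kernels hold no endosperm, and the endosperm markers there summed to 0.825 to 2.59 CPM. The part of RNA or reads from other libraries in these counts was not tested.

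The genes known to act on zeins were described from lists by name, with 7 of 9 activators found. At 7 against 5 DAP, where 10.0% of all models were called higher, the bHLH gene o11, the MADS-box gene mads47 and fl3, a PLATZ protein linked to RNA polymerase III, were higher. o2 and pbf1 also had adjusted p-values under the threshold, but they had at most 7 counts in each kernel library and were tested only through endosperm, so their values at this step are a description. At 10 against 7 DAP o2 and pbf1 were higher (2.83% of all models), and the list's median was 0.57, beside -0.053 over all models. At 15 against 10 DAP o2 was the 1 member called higher (3.73% of all models), and the median was 0.14, beside -0.37. At 3 against 0 DAP o11 was the 1 member called, and it passed the filter only through later ages than 0 DAP. At 5 against 3 DAP edgeR called 0 of 7 (2 at an unadjusted p under 0.05, and 2 with DESeq2). At this step 4623 of 46342 models had an unadjusted p under 0.05 in edgeR. DESeq2 called 738 of 30753 models higher and 549 lower. Between crosses in the 6 endosperm libraries edgeR called 0 of 7 (2 at an unadjusted p under 0.05, and 1 with DESeq2). Here 3873 of 35482 models had an unadjusted p under 0.05 in edgeR. DESeq2 called 638 of 37558 models higher and 379 lower.

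o2 had 1.02 CPM in BxM and 3.06 CPM in MxB at 7 DAP, 141 and 55.6 CPM at 10 DAP, and 834 and 538 CPM at 15 DAP. It rose by a log2 of 5.57 (SE 0.900, edgeR adjusted p = 0.0165) at 10 against 7 DAP and 2.81 (SE 0.770, adjusted p = 0.0367) at 15 against 10 DAP. The order of the crosses was that of bz15: BxM was the lower at 7 DAP and the higher at 10 and 15 DAP. pbf1 had 3.76 and 10.1 CPM at 7 DAP, 103 and 76.8 CPM at 10 DAP, and 299 and 307 CPM at 15 DAP in BxM and MxB. The bZIP genes ohp1 and ohp2, partners of o2, did not pass at any step and lay between 3.33 and 32.6 CPM over all 12 libraries.

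Of genes of the protein body and the endoplasmic reticulum 6 of 9 were found. At 7 against 5 DAP 3 of 6 were higher (10.0% of all models) and 0 lower (14.8%), with a median of 0.86: the BiP chaperones bip1 (log2 1.04) and bip2 (1.52) and the protein disulfide isomerase pdi1 (1.65). At 10 against 7 DAP 1 was higher and 1 lower (2.83% and 0.962% of all models), with a median of 0.33. At 15 against 10 DAP 2 were higher and 1 lower (3.73% and 14.0% of all models), with a median of 0.71. fl1, a membrane protein of the protein body, had 3.59 CPM in BxM and 2.82 CPM in MxB at 7 DAP, 22.6 and 13.6 CPM at 10 DAP, and 209 and 171 CPM at 15 DAP. It rose at 10 against 7 DAP (2.47, SE 0.295, edgeR adjusted p = 0.00638) and at 15 against 10 DAP (3.42, SE 0.304, adjusted p = 0.000523). o10, a protein that places zeins within the body, rose at 15 against 10 DAP (3.17, SE 0.526, edgeR adjusted p = 0.00465). The calreticulin crt2, a calcium-binding chaperone, fell at both steps, to 82.0 CPM in BxM and 118 CPM in MxB at 15 DAP, against 442 and 450.2 CPM at 10 DAP (log2 -2.16, SE 0.285, edgeR adjusted p = 0.00178). At 10 against 7 DAP its log2 fold change was -1.21 (SE 0.277, edgeR adjusted p = 0.0498). edgeR called 0 of 6 at 3 against 0 DAP (5 at an unadjusted p under 0.05, and 2 with DESeq2), at 5 against 3 DAP (1 and 1) and between crosses in the 6 endosperm libraries (1 and 0). In the same order 6864 of 46342, 4623 of 46342 and 3873 of 35482 models had an unadjusted p under 0.05 in edgeR. DESeq2 called 2564 of 34666, 738 of 30753 and 638 of 37558 models higher, and 651, 549 and 379 lower.

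Alpha-zein genes, of which 25 were found and 24 tested, were called at the 3 steps that involve endosperm. At 7 against 5 DAP 1 was called higher (z1B_9) and at 10 against 7 DAP 2 were (z1B_7 and z1B_9), beside 10.0% and 2.83% of all models. z1B_9 had at most 6 counts in each kernel library, and z1B_7 had 0 counts up to 7 DAP and 27 in BxM and 14 in MxB at 10 DAP. At these steps z1B_9 (7 against 5 DAP) and z1B_7 (10 against 7 DAP) passed the filter only through the later ages where they were high, so these calls are a description. At 10 against 7 DAP DESeq2 called 15 of 24, where it called 9.13% of all models higher, and 21 had an unadjusted p under 0.05 in edgeR. Over all models 8485 of 46342 had an unadjusted p under 0.05 in edgeR at this step. At 15 against 10 DAP edgeR called 12 of 18 higher, beside 3.73% of all models, and 10 of these 12 passed the filter without the 15 DAP libraries. DESeq2 called 14 of 18 and 10.6% of all models higher, and in edgeR all 18 had an unadjusted p under 0.05. Over all models 14202 of 46321 had an unadjusted p under 0.05 in edgeR at this step. At the earlier steps, 3 against 0 and 5 against 3 DAP, edgeR called 0 of 24 (0 at an unadjusted p under 0.05, and 0 with DESeq2). Over all models 6864 and 4623 of 46342 had an unadjusted p under 0.05 at these steps. Between crosses edgeR called 0 of 15 in the 6 endosperm libraries (2 at an unadjusted p under 0.05, and 0 with DESeq2). There 3873 of 35482 models had an unadjusted p under 0.05 in edgeR. Alpha-zein genes are copies of one another, so reads can be split among them.

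The models whose pattern was most like each gene were ranked by Pearson's r of log2(CPM + 1). This describes 12 libraries that share ages and depth, and 10 libraries of 0 to 10 DAP for gz27 and gz16. gz50 was followed by AF546187.1_FG001 (r = 0.998) and by the alpha-zein gene fl2 and GRMZM2G397678, a model with the same counts (0.998 each). gz16 was followed by its near copy GRMZM2G518638 (1.00) and then by the same GRMZM2G397678 and fl2 (0.992 each). bz15 was followed by GRMZM2G141810 (0.997), o2 (0.995) and GRMZM2G071433 (0.994). dzs18 was followed by GRMZM2G446225 and GRMZM2G446220 (0.993 each) and GRMZM2G037327 (0.989), and gz27 by GRMZM2G365770 (0.994), GRMZM2G018006 (0.990) and GRMZM2G170382 (0.989). Among the 5 genes over 10 libraries, r was lowest for gz27 with gz50 (0.879) and highest for bz15 with dzs18 (0.990).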

How the data were processed

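For each of 12 libraries the authors deposited a table of raw read counts over 108342 gene models and a table of normalised signal. Bowtie and bedtools were used, per the submitters' processing notes, while versions, genome build and strand setting were not given in the sources used here. Normalised signal was made by the authors with edgeR's scaling factors as RPM, per the note deposited with the tables, and served only as an alternative scale. The tests used the quasi-likelihood functions glmQLFit and glmQLFTest of edgeR 4.0.16 (R 4.3.3) after filterByExpr, with TMM factors. P-values were adjusted over all models tested by Benjamini and Hochberg's method, with a threshold of 0.05. DESeq2 1.42.0 was an alternative. Age steps came from 1 fit of the 12 libraries with terms for age and for cross (5 residual degrees of freedom). Crosses were fitted with age as a term on 6 endosperm libraries (2 residual degrees of freedom) or on the 4 of 7 and 10 DAP (1 residual degree of freedom). Standard errors were derived from the F statistic. The fit was also run on simulated counts with a single fixed spread and no trend with age or tissue beyond the changes put in. Those settings differ from these data, so no result here rests on that run.

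Models were left out of tests on 15 DAP where both of its libraries list 0 and the 10 DAP mean is 5000 counts or more, or where 1 lists 0 and the other 100000 or more. In the other age steps their listed 0 values stayed in the fit of 12 libraries, and a fit of 0 to 10 DAP alone was an alternative. Gene names came from the RefSeq table of Zm-B73-REFERENCE-NAM-5.0, which is not known to be the files' build, so no coordinates are given. Of 47 names in the lists 41 were matched. The list names nac128, nac130, o1, crt1 and cnx1 and the marker zmm1 were not matched and not used here, and neither was dzs10. pdi1 was filled with PDIL1-1 and o11 with Opaque11. o2, pbf1 and fl3 are both activators and endosperm markers. The text names the 5 genes, the members of the lists and, for each gene, the 3 models with the highest Pearson correlation of log2(CPM + 1) among models with a mean count of at least 100. The genes, the lists and the rule for doubtful 0 values were chosen with earlier results of these data known. Levels of different genes per length and features of their sequences were not analysed here.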

Additional observations from a re-analysis of the deposited data

Results flagged for a closer look

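For 4 of the 5 genes the difference between crosses had opposite signs in the endosperm libraries of 7 and 10 DAP. The log2 ratio of BxM over MxB was -2.34 at 7 DAP and 0.42 at 10 DAP for gz27, -2.77 and 1.47 for gz16, -2.63 and 1.28 for gz50, and -0.63 and 1.41 for bz15. Each ratio rests on 1 library per cross, and the difference between the ages was not tested. The transcript of o2 had the same order. It had 1.02 CPM in BxM and 3.06 CPM in MxB at 7 DAP, then 141 and 55.6 CPM at 10 DAP. The turn was not particular to these genes. In BxM and MxB the alpha-zein gene fl2 had 0.561 and 4.26 CPM at 7 DAP, then 128 and 60.8 CPM at 10 DAP. pbf1, leg1 and glb1 turned likewise, while fl3 was higher in BxM at both ages. The share of all models that turned was not counted.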

How the results depend on the processing

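Of 437 alternative fits of the 28 fold changes, 401 kept direction and side of the threshold, 21 lost the call, 9 gained one and 6 changed sign. These 6 came from leaving out 1 library, over which dzs18 at 3 against 0 DAP ran between -0.049 (without BxM 0 DAP) and 0.70, and gz16 between -0.35 (without MxB 0 DAP) and 4.57. gz50 ran between -6.34 and 0.39 (without BxM 5 DAP) at 5 against 3 DAP, and between -0.66 (without MxB 7 DAP) and 7.09 at 7 against 5 DAP. Between crosses gz50 ran between -1.05 and 0.88 (without BxM 7 DAP), with 0.87 without MxB 7 DAP. The number of genes called at 10 against 7 DAP was 5 with endosperm libraries only, a fit that held the doubtful 0 values of gz27 and gz16. Between crosses in 6 libraries it was 1 with no filter on low counts and 1 with DESeq2. The cause was not tested. Leaving out 1 library gave 0 to 0 calls at 3 against 0 and at 5 against 3 DAP, 2 to 3 at 7 against 5 DAP (1 to 2 with dzs18 not counted), 1 to 3 at 10 against 7 DAP, 0 to 3 at 15 against 10 DAP and 0 to 2 between crosses. The 4-library fit between crosses has no residual degrees of freedom without 1 library and was not run so. Upper-quartile scaling put the median of all models at 7 against 5 DAP at 0.20. With other scales 40 of 112 levels and 24 of 84 cross ratios moved beyond their counting intervals. Set against the 15 DAP count of the other cross, an alternative chosen after seeing the data, 9 of 18 kernel percentages moved. No paired analysis was possible beyond the terms in the fits (cross for the age steps, age between crosses) because the labels give no replicate numbers. Depth limits dzs18 and gz50 in kernels, where counts fell to 2 to 4.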

Other observations

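Other storage protein genes of the kernel were measured in the same libraries. The legumin gene leg1 had 262 CPM in BxM and 1135 CPM in MxB at 7 DAP, against 0.596 and 2.89 CPM at 5 DAP, a log2 fold change of 8.65 (SE 0.799, edgeR adjusted p = 0.00035). At later steps it did not pass in edgeR, and it had 2133 and 1616 CPM at 10 DAP and 3663 and 6932 CPM at 15 DAP. The globulin gene glb1, a storage protein of the embryo, rose at 7 against 5 DAP (4.42, SE 1.03, edgeR adjusted p = 0.0144), to 1.21 CPM in BxM and 4.77 CPM in MxB at 7 DAP, against 0.0634 and 0.198 CPM at 5 DAP. It had 22.7 and 17.8 CPM at 10 DAP and 4.40 and 3.63 CPM at 15 DAP. glb2 had 0 counts in all 8 libraries of 0 to 7 DAP and 6 to 14 counts in the later ones. edgeR called 0 of these 3 genes at 10 against 7 DAP (3 at an unadjusted p under 0.05, and 2 with DESeq2) and 0 of 3 at 15 against 10 DAP (1 and 0). In the same order 8485 of 46342 and 14202 of 46321 models had an unadjusted p under 0.05 in edgeR. DESeq2 called 3522 of 38579 and 4244 of 39862 models higher, and 2143 and 7213 lower. Between crosses in the 6 endosperm libraries edgeR called 0 of these 3 genes (0 at an unadjusted p under 0.05, and 0 with DESeq2).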
